A study of Mus musculus with 18 samples.

Results

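The mitochondrial ribosomal protein genes are described here in regulatory T cells (Tregs) with and without CHD8, a chromatin remodeler of the CHD family. They were taken from the RNA-seq table by symbol, as every gene named Mrpl or Mrps with a number and, for some, a letter a, b or c. The rule found 77 genes among the 35865 genes with a single name, 48 of them Mrpl and 29 Mrps, and all 77 were among the 15240 genes that were tested (TPM, the expression unit scaled to transcript length and library total, of at least 1 in 2 or more libraries). The RNA was that of YFP+ cells sorted from splenic CD4+ T cells of 5 to 7 week-old mice, in 2 WT and 2 Chd8-/- libraries. The labels give the genotype of the Chd8-/- samples as CHD8Flox/FloxFoxp3YFP-Cre and that of the WT samples as CHD8flox/floxFoxp3YFP-Cre/+, whereas the study's text describes its WT mice as Chd8+/+ littermates with the same Cre, so the genotype of the WT libraries is not settled by these sources. In both genotypes Cre is a YFP fusion driven by the X-linked Foxp3 gene, which restricts deletion to cells that have switched on Foxp3, and all samples carry the label Poly IC injection. ATAC-seq and CHIP-seq samples of the series were not analysed here.

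Mitochondria make a small set of respiratory chain subunits on ribosomes of their own. The RNA of these ribosomes is encoded by mitochondrial DNA, but all of their proteins are encoded in the nucleus, translated in the cytosol and imported, so that the respiratory chain draws on nuclear and mitochondrial genes at once. The large subunit joins amino acids and the small subunit reads the message. Some of the proteins have a counterpart in bacterial ribosomes and others are specific to mitochondria. Tregs are known to lean on oxidative phosphorylation more than effector T cells do, and mitochondrial translation is known to sustain the effector function of cytotoxic T cells.

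Chd8 itself had a TPM of 24.7 and 27.6 in the WT libraries and 14.9 and 11.4 in the Chd8-/- libraries, with no overlap, a log2 fold change of -0.95 (SE 0.29) and an adjusted p of 0.455 (limma). All 8 Treg markers were above 0 in every library. The Treg factor Foxp3 lay between 202.8 and 232.1 TPM and overlapped between genotypes, as did Il2ra and Ikzf2. Ctla4, Tnfrsf18 and Lrrc32 were higher without overlap (log2 fold changes 0.51, 0.73 and 0.57) and Cd4 and Cd3e were lower (-0.36 and -0.26), each with an adjusted p above 0.05. In the summed TPM of erythroid and of myeloid markers the WT libraries were alike, and the Chd8-/- libraries departed from them in opposite directions. The 7 erythroid markers summed to 385.9 and 354.2 TPM in WT, to 8.8 in the first Chd8-/- library and to 2003.3 in the second. The 8 myeloid markers summed to 334.5 and 405.3 TPM in WT, to 62.7 in the first and to 1769.1 in the second, of which Lyz2 alone gave 1360.3. The other 7 summed to 257.4, 344.8, 42.7 and 408.8 TPM in the same order, and among them Tyrobp was not raised in the second Chd8-/- library (135.2 and 184.5 TPM in WT, 29.5 and 128.4 in Chd8-/-). In the first Chd8-/- library 3 of the erythroid markers (Hba-a2, Hbb-bt and Hbb-bs) and 2 of the myeloid ones (S100a9 and Fcer1g) were listed at 0. S100a9 was also near 0 in WT (0.6 and 0.0 TPM). Single markers went otherwise than the sums. The erythroid Alas2 was lower in both Chd8-/- libraries (15.0 and 21.5 TPM in WT, 8.0 and 7.5 in Chd8-/-). The myeloid S100a8 was higher in both (0.0 and 0.0 TPM in WT, 5.3 and 16.5 in Chd8-/-). The 7 B cell markers summed to 408.1 TPM in the second Chd8-/- library and to between 112.2 and 140.0 in the other libraries, and the 8 CD8 and NK cell markers lay between 58.0 and 96.1 in all 4. The 12 proliferation markers summed to 762.1 and 806.8 TPM in WT and to 973.6 and 1048.4 in Chd8-/-, but without Pcna, the most abundant, the sums of 341.4 and 409.5 in WT and 402.8 and 524.8 in Chd8-/- overlapped. The study's text gives 1 male and 1 female mouse for each genotype without tying them to libraries, so a difference between libraries of a genotype and a difference between sexes cannot be told apart. The part of these cells in the results below was not tested, and in bulk RNA fewer cells of a type and less RNA per cell cannot be told apart. Where a member's log2 fold change rests on 1 library, it is also given without it, and for some other genes the TPM of each library is given.

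All 77 genes were expressed in the Tregs. Their mean TPM over the 4 libraries ran from 4.925 for Mrpl55 to 532.4 for Mrpl52, with a median of 37.48 against 13.4 for all genes tested. The level passed 100 TPM in 12 genes and stayed under 10 in 5. Mrpl52, a mitochondria-specific protein of the large subunit, had 622.4 and 481.0 TPM in WT and 467.9 and 558.4 in Chd8-/-. Mrpl33, the counterpart of a small bacterial large-subunit protein, came next with 330.0 and 282.9 TPM in WT and 353.4 and 460.4 in Chd8-/-. Mrps21, of the small subunit, followed with 196.7 and 148.6 against 189.1 and 193.7 TPM. The libraries of these 3 genes did not overlap from one gene to the next. Further down the order, through Mrps6, Mrps16, Mrps15, Mrpl32, Mrpl13, Mrps18c and Mrps25, each gene's libraries overlapped with those of the next. The sources name both a 3′ assay and an Illumina RNA-seq kit for the RNA, so a level per length may not be comparable between these genes.

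**Figure D1:**
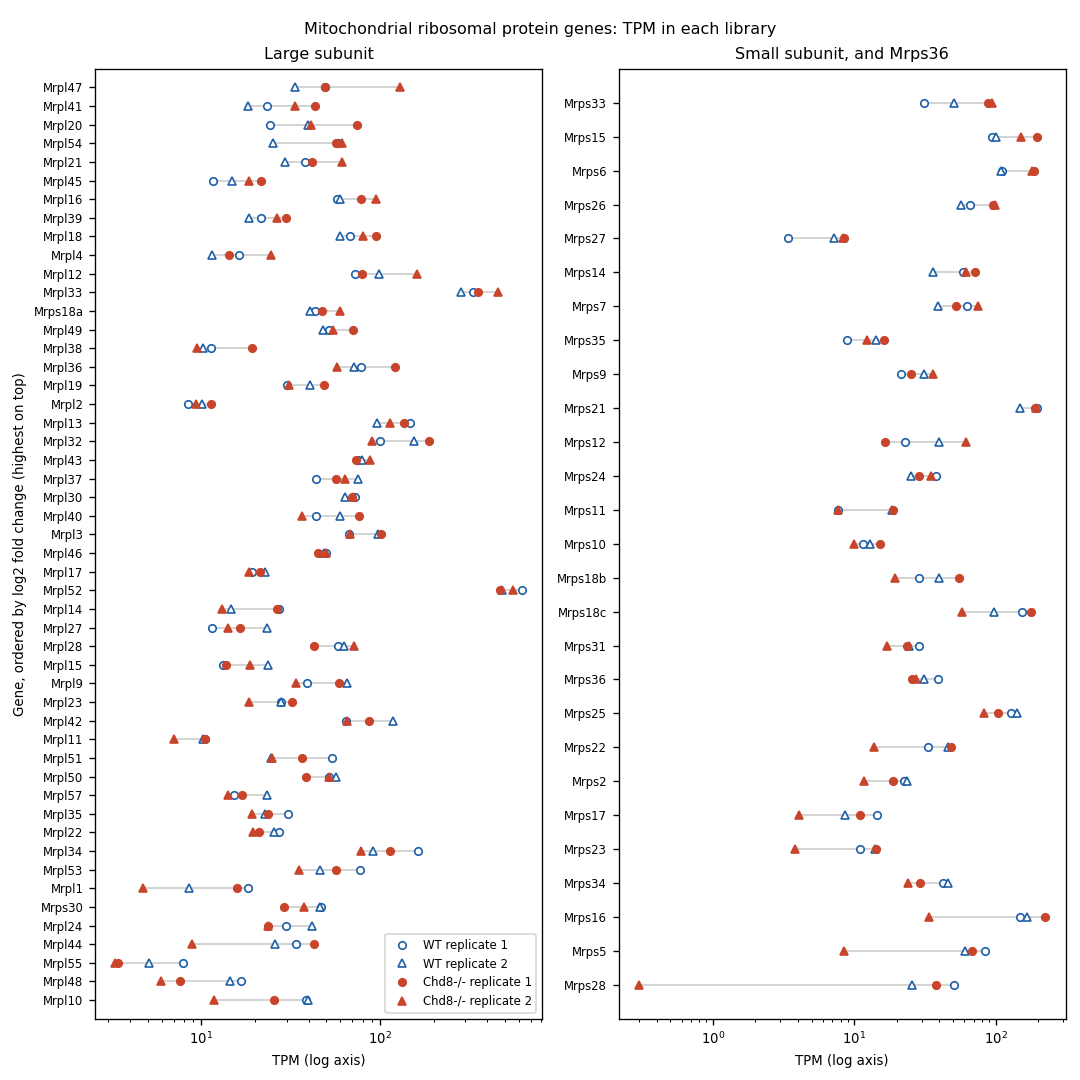
TPM of each of the 77 mitochondrial ribosomal protein genes on a log axis, with genes ordered by log2 fold change in the large subunit (left) and the small subunit with Mrps36 (right). Open blue symbols are the 2 WT libraries and filled red symbols the 2 Chd8-/- libraries, with circles for replicate 1 and triangles for replicate 2, and the grey line spans the 4 values. The libraries overlapped between genotypes in 49 genes, and the filled triangles lie far to the left in Mrps28, Mrps5 and Mrps16.

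In the comparison of Chd8-/- with WT Tregs the mitochondrial ribosomal protein genes did not move as a block. On the log2(TPM + 1) scale 39 of 77 were higher in Chd8-/- and 38 were lower, and the median log2 fold change was 0.01, with a range from -2.40 for Mrps28 to 1.16 for Mrps33. The genes higher in Chd8-/- made up 50.6% of the members and 38.5% of all genes tested, whose median log2 fold change was -0.15. Against that median the members stood 0.16 higher, and 47 of the 77 lay above it. Where the median of all genes was set to 0, the share of members above 0 became 61.0%, where all genes split evenly.

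The TPM of the 77 genes summed to 4621.3 and 4325.7 in WT and to 5080.4 and 4481.7 in Chd8-/-, which gives means of 4473.5 ± 209 and 4781.1 ± 423.3 TPM (SD, n = 2 each). The libraries overlapped between the genotypes. An exact permutation test gave p = 0.667 (two-sided). With 2 against 2 libraries it cannot go below 0.333, so it could not decide whether the sums differ.

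In 16 members, or 20.8%, the lower Chd8-/- library was above the higher WT library, which held for 14.8% of all genes tested. In 12 members, or 15.6%, all Chd8-/- values were below WT, against 27.8% of all genes. A doubling on this scale (log2 fold change of 1 or more) was reached upward by 1 member (1.3%, against 5.12% of all genes) and downward by 4 (5.19%, against 11.6%). At an unadjusted p under 0.05 (limma), 5 members were higher, or 6.49% against 3.9% of all genes, and 2 were lower, or 2.6% against 6.3%. With Benjamini-Hochberg adjustment over all genes 0 members passed 0.05, and 0.0% of all genes did. The smallest adjusted p was 0.41 among the members (Mrps6) and 0.0807 among all genes. The median SE of a member's log2 fold change was 0.337. With 2 libraries per genotype, differences of this order could not be resolved for a single gene. Nor were differences of several times their SE, as in Mrps6 (log2 fold change 0.73, SE 0.17).

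Mrps33, a mitochondria-specific protein of the small subunit, had the highest fold change. Its TPM was 31.3 and 51.0 in WT and 87.8 and 93.7 in Chd8-/-, a log2 fold change of 1.16 (SE 0.30, adjusted p = 0.433). Mrps15, a small-subunit protein with a bacterial counterpart that binds the ribosomal RNA, stood at 94.6 and 100.4 TPM in WT and at 196.1 and 150.9 in Chd8-/- (log2 fold change 0.81, SE 0.21, adjusted p = 0.433). Both genes are in the study's list of genes bound by CHD8 and higher in Chd8-/-, which was drawn from these same libraries and is no independent evidence of their direction.

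Mrps6 had the tightest replicates of the higher genes. It stood at 110.7 and 108.6 TPM in WT and at 186.3 and 179.8 in Chd8-/-, a log2 fold change of 0.73 (SE 0.17, adjusted p = 0.41). In the RefSeq annotation it overlaps Slc5a3, an inositol transporter gene, on the same strand, and how reads in the shared stretch were counted is not given in the sources used here. The TPM of Slc5a3 went the other way, with 58.8 and 64.7 in WT and 47.1 and 43.6 in Chd8-/-. Mrps26, of the small subunit, was likewise even within genotypes, at 66.2 and 57.4 TPM in WT and at 96.2 and 98.5 in Chd8-/- (log2 fold change 0.65, SE 0.20, adjusted p = 0.455).

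In the large subunit Mrpl41, a mitochondria-specific protein, had 23.3 and 18.3 TPM in WT and 43.1 and 33.3 in Chd8-/- (log2 fold change 0.84, SE 0.29, adjusted p = 0.471). Mrpl20, whose bacterial counterpart is needed early in large-subunit assembly, had 24.1 and 39.4 TPM in WT and 74.5 and 41.3 in Chd8-/- (log2 fold change 0.83, SE 0.42). The second Chd8-/- library of Mrpl20 was barely above the second WT library, and without the first Chd8-/- library its log2 fold change was 0.41. Mrpl16, which lies near the catalytic centre of the large subunit, had 57.4 and 59.4 TPM in WT and 78.6 and 95.1 in Chd8-/- (log2 fold change 0.56, SE 0.21). Mrpl21 had 38.2 and 29.3 TPM in WT and 41.6 and 61.1 in Chd8-/-, a log2 fold change of 0.58 that was 0.31 without the second Chd8-/- library. Mrpl45, a mitochondria-specific protein at the exit of the nascent chain, had 11.6 and 14.8 TPM in WT and 21.6 and 18.5 in Chd8-/- (log2 fold change 0.57). Mrpl39 had a log2 fold change of 0.47, with TPM of 21.5 and 18.4 in WT and 29.7 and 26.4 in Chd8-/-. In the small subunit the WT libraries decided 2 of the values. Mrps14 had 59.0 and 36.1 TPM in WT and 71.7 and 62.0 in Chd8-/-, and its log2 fold change of 0.52 was 0.17 without the second WT library and 0.87 without the first. Mrps27 had 3.4 and 7.2 TPM in WT and 8.5 and 8.3 in Chd8-/-, and its log2 fold change of 0.65 was 0.20 without the first WT library and 1.10 without the second. The other 4 members without overlap, Mrpl18, Mrpl33, Mrps18a and Mrpl49, had log2 fold changes of 0.46, 0.40, 0.33 and 0.31. Without the second Chd8-/- library Mrpl33 was 0.21 and Mrps18a 0.17, and without the first Mrpl49 was 0.12. The TPM of Mrpl49 was 51.6 and 48.1 in WT and 70.8 and 54.4 in Chd8-/-. Mrpl18 had 67.8 and 59.5 TPM in WT and 94.9 and 80.7 in Chd8-/-. It shares bases with the chaperonin gene Tcp1 on the other strand, which had 129.4 and 96.9 TPM in WT and 189.2 and 145.7 in Chd8-/-.

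Mrpl10 and Mrpl48 were the lowest of the members without overlap. Mrpl10, a protein of the large subunit stalk that recruits translation factors, had 38.5 and 39.7 TPM in WT and 25.5 and 11.7 in Chd8-/-, a log2 fold change of -1.13 (SE 0.43, adjusted p = 0.496). The WT libraries were nearly equal and the Chd8-/- libraries were far apart. Mrpl48, a mitochondria-specific protein of the large subunit, had 16.6 and 14.4 TPM in WT and 7.6 and 5.9 in Chd8-/- (log2 fold change -1.10, SE 0.33, adjusted p = 0.455). It is in the study's list of bound genes that were lower in Chd8-/-, chosen on these libraries, and it shares bases with Rab6a and Cox20b on the other strand. Without the second Chd8-/- library its log2 fold change stayed close, at -0.94, while that of Mrpl10 became -0.60.

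Among the small-subunit genes Mrps34, a mitochondria-specific protein, had 42.5 and 45.9 TPM in WT and 29.1 and 24.1 in Chd8-/- (log2 fold change -0.72, SE 0.24, adjusted p = 0.470). Mrps25 had 129.0 and 140.8 TPM in WT and 103.4 and 82.3 in Chd8-/- (log2 fold change -0.54, SE 0.21). Mrps2, which has a bacterial counterpart, had 22.5 and 23.5 TPM in WT and 18.8 and 11.8 in Chd8-/- (log2 fold change -0.59, SE 0.34), and without the second Chd8-/- library it was -0.28. These 3 were below WT in both Chd8-/- libraries. So was Mrps31, at 28.6 and 24.4 TPM in WT and 23.7 and 17.1 in Chd8-/-, with a log2 fold change of -0.37 that was -0.15 without the second. In the large subunit Mrpl55 had a log2 fold change of -0.76, at 7.9 and 5.1 TPM in WT and 3.4 and 3.3 in Chd8-/-, and -0.49 without the first WT library. Mrpl24 had 29.9 and 41.4 TPM in WT and 23.6 and 23.7 in Chd8-/-, with a log2 fold change of -0.55 that was -0.33 without the second WT library. Its Chd8-/- libraries were nearly equal. Mrpl22 had 27.2 and 25.4 TPM in WT and 20.9 and 19.4 in Chd8-/- (-0.37). Mrpl50 had 52.1 and 56.5 TPM in WT and 38.5 and 52.0 in Chd8-/-, and its log2 fold change of -0.27 was -0.060 without the first Chd8-/- library. Mrps30, which despite its symbol is part of the large subunit, had 46.5 and 45.9 TPM in WT and 28.9 and 37.7 in Chd8-/- (log2 fold change -0.47, and -0.29 without the first Chd8-/- library). Mrps36, now assigned to the 2-oxoglutarate dehydrogenase complex of the citric acid cycle and not to the ribosome, had 39.2 and 31.1 TPM in WT and 25.7 and 27.3 in Chd8-/- (log2 fold change -0.39, and -0.22 without the first WT library). Of the 28 members without overlap, 15 moved by more than 1.5 times when 1 library was left out. That 0 changed direction follows from how they were chosen, since values without overlap keep their order with fewer libraries.

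**Figure D2:**
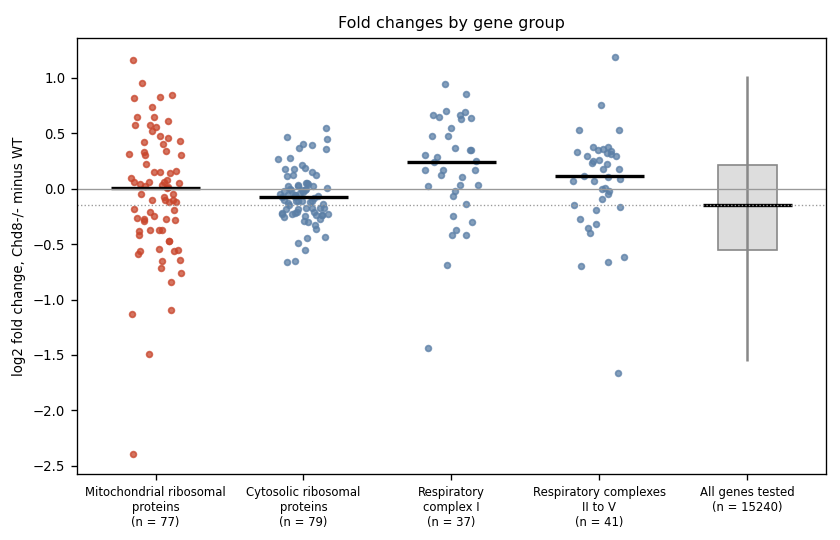
Log2 fold change (Chd8-/- minus WT, on log2(TPM + 1)) of each gene in 4 groups, with black bars at the group medians. All genes tested are shown as a box from the lower to the upper quartile, with a line from the 5th to the 95th percentile, and the dotted line marks their median of -0.15. The medians were 0.01 for the mitochondrial ribosomal proteins, -0.08 for the cytosolic ribosomal proteins, 0.24 for complex I and 0.11 for complexes II to V.

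The 2 Chd8-/- libraries differed from each other in these genes, as they did over all genes. A difference of at least 1 on the log2 scale was found with the first library higher in 15 members (19.5%, against 17.4% of all genes) and with the second higher in 3 (3.9%, against 9.44%). Between the WT libraries there were 3 and 1 such members (3.9% and 1.3%), against 959 and 1236 of the 15240 genes tested. The first Chd8-/- library lay above and the second below both WT libraries in 12 members (15.6%, against 11.9% of all genes), and the reverse held in 4 (5.19%, against 6.52%). The median absolute log2 difference within a genotype was 0.42 for the members in Chd8-/- and 0.41 in WT, and over all genes 0.521 and 0.322. The Pearson correlation of the log2 values was taken across the 77 genes, which share library and depth and are not replicates. It was 0.798 for the Chd8-/- pair and 0.91 for the WT pair, against 0.86 and 0.919 over all genes tested. Across the members, the first Chd8-/- library correlated with the WT libraries at 0.91 and 0.919 and the second at 0.759 and 0.806.

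The second Chd8-/- library was under 0.5 times the lower WT value in 9 members (11.7%, against 19.1% of all genes) and the first in 0 (against 8.77%). The lowest of them, named after their values were seen, were small-subunit genes with bacterial counterparts. Mrps28 had 51.0 and 25.8 TPM in WT, 37.7 in the first Chd8-/- library and 0.3 in the second. Mrps5, near the site where messenger RNA enters, had 84.0 and 60.8 TPM in WT, 68.6 in the first and 8.5 in the second. Mrps16 had 148.3 and 168.3 TPM in WT, 225.0 in the first and 33.9 in the second. The log2 fold changes of -2.40, -1.49 and -0.84 of these 3 genes came from 1 library, and without it the log2 difference from WT was 0.052 for Mrps28, -0.058 for Mrps5 and 0.51 for Mrps16. Mrpl44, an endonuclease-like protein of the large subunit in which human mutations cause cardiomyopathy, had 34.0 and 25.8 TPM in WT, 42.6 in the first and 8.9 in the second. Mrps22, Mrps23 and Mrps17 had the same pattern, with 13.9, 3.8 and 4.1 TPM in the second library. In the opposite direction Mrpl47, of the large subunit, had 49.5 and 33.3 TPM in WT, 49.1 in the first Chd8-/- library and 128.8 in the second, so that its log2 fold change of 0.95 was 0.27 without the second.

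**Figure D3:**
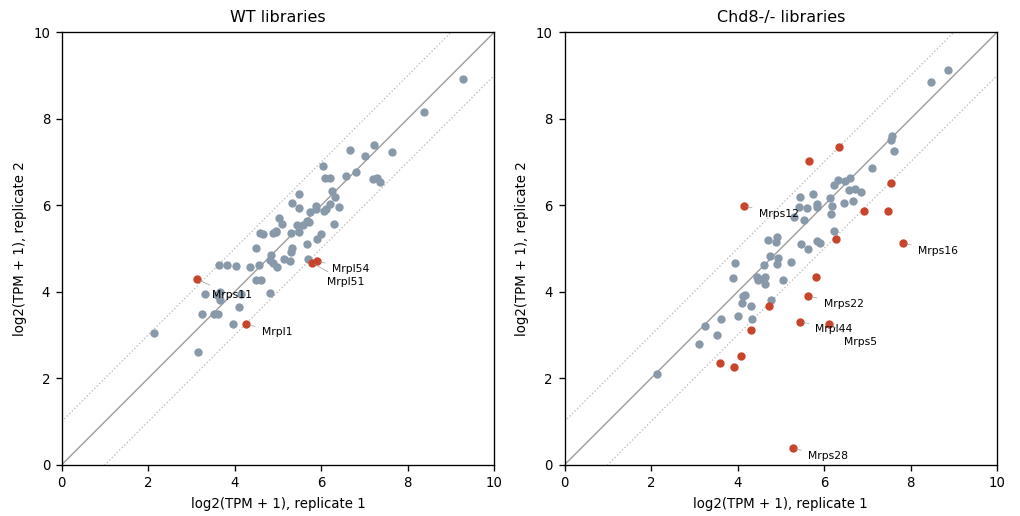
Each point is 1 of the 77 genes, with log2(TPM + 1) of replicate 1 on the x axis and of replicate 2 on the y axis, for WT (left) and Chd8-/- (right). The solid line marks equal values, dotted lines a difference of 1, and red points genes at or past it. The Chd8-/- panel has 15 red points below the line and 3 above it, and the WT panel 3 and 1.

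Leaving out single libraries moved the median of the members across 0. It was -0.17 without the first Chd8-/- library and 0.17 without the second, where the median of all genes was -0.25 and -0.04. In each of these fits the members stood above all genes, by 0.08 and 0.21, and by 0.15 without either WT library. With all libraries the offset depended on the processing. It was 0.07 under quantile normalization, where 58.4% of the members and 50.1% of all genes were above 0. It was 0.11 under log2(TPM + 5) and 0.18 under log2(TPM + 0.1). Without a filter it was 0.0059, but there the reference changed and the members' own median did not. All 35865 genes, many of them at 0 TPM, then had a median of 0.0 with 30.3% above 0, against 50.6% of the members. Without the second Chd8-/- library 62.3% of the members were higher in Chd8-/- against 46.9% of all genes, and without the first 44.2% against 37.0%.

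**Figure D4:**
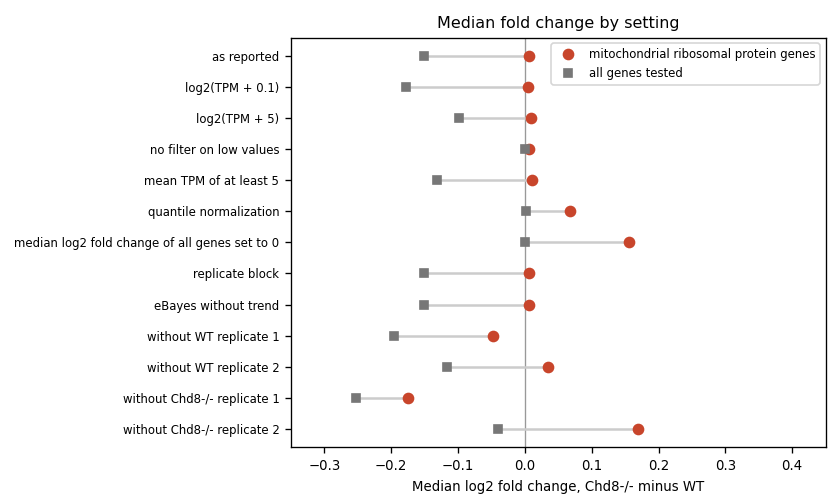
Median log2 fold change (Chd8-/- minus WT, x axis) of the 77 members (red circles) and of all genes tested (grey squares) under each setting of the analysis. The member median ran from -0.17 without Chd8-/- replicate 1 to 0.17 without Chd8-/- replicate 2, and was 0.01 as reported.

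The subunits were described separately, and their difference was not tested. Of the 50 large-subunit genes 25 were higher and 25 lower in Chd8-/-, with a median of -0.01, and there was no overlap with WT in 10 of the higher (20.0%, against 14.8% of all genes) and 7 of the lower genes (14.0%, against 27.8%). Of the 26 small-subunit genes 14 were higher and 12 lower, with a median of 0.01, and 6 lay above WT (23.1%) and 4 below (15.4%) without overlap. At an unadjusted p under 0.05, 1 large-subunit gene was higher (2.0%) and 1 lower (2.0%), and 4 small-subunit genes were higher (15.4%) and 1 lower (3.85%), against 3.9% and 6.3% of all genes. The first Chd8-/- library exceeded the second by at least 1 on the log2 scale in 6 of the 50 large-subunit and 9 of the 26 small-subunit genes. Over all genes this held for 17.4%. The interquartile range was wider in the small subunit, from -0.58 to 0.33, than in the large, from -0.27 to 0.33. The 16 small-subunit genes with a bacterial counterpart had a median of 0.02 and the 10 mitochondria-specific ones -0.21. In the large subunit these medians were -0.02 over 30 genes and 0.00 over 20. The median of the small subunit was -0.43 without the first Chd8-/- library and 0.23 without the second.

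The 3 Mrps18 genes are related in sequence but differ in place. Mrps18c is the counterpart of the bacterial protein, Mrps18b is another small-subunit protein and Mrps18a sits in the large subunit. Mrps18c had 155.0 and 98.2 TPM in WT, 178.2 in the first Chd8-/- library and 57.6 in the second, and Mrps18b had 28.7 and 40.0 TPM in WT, 54.8 in the first and 19.3 in the second. Both were therefore highest in one Chd8-/- library and lowest in the other. Mrps18a had 43.5 and 40.8 TPM in WT and 47.5 and 59.8 in Chd8-/-, higher in both (log2 fold change 0.33, SE 0.23, adjusted p = 0.672).

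The members lie on 17 chromosomes, with at most 10 on 1 of them (chromosome 11). In the GRCm38.p6 annotation 25 of them overlap another gene and 21 a gene on the other strand, and whether the counting used strand is not given in the sources used here.

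Promoters were read for 68 of the 77 members (74 promoters of 300 bases, 250 before and 50 from the start) from the RefSeq table of GRCm38.p6. Their median GC content was 58.5% against 52.7% in all 32851 promoters. Nuclear genes for mitochondrial proteins are known targets of nuclear respiratory factor 1 (NRF1), of the ETS factor GABP and of YY1, and a short core of each element was searched on both strands. The NRF1 letters GCGCATGC were found in 8 member promoters (10.8%, against 2.71% of all promoters). The ETS letters CCGGAAGT were found in 12 (16.2%, against 3.89%), and the YY1 letters AAGATGGC in 12 (16.2%, against 2.75%). The E-box CACGTG, an element of MYC, was found in 7 (9.46%, against 7.15%) and TATAAA in 5 (6.76%, against 13.6%). None of the 5 was found in 34 of the 68 members, and none of the words searched is part of another. Among the 16 higher and 12 lower members without overlap, the ETS letters were in 4 higher and 1 lower and the YY1 letters in 3 and 0. The NRF1 letters were in 2 and 2, and the E-box and TATAAA in 1 higher each and 0 and 1 lower. Over all 68 members read, ETS, YY1, NRF1, E-box and TATAAA letters were in 12, 12, 8, 5 and 5. These small counts were not tested. A match of letters is no evidence of binding.

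Promoters are shown for 3 members, the most expressed for each of the NRF1, ETS and YY1 letters among those with a single promoter and the letters inside the stretch printed, and for the 3 highest and 3 lowest members without overlap that have a single promoter in the table. Each stretch of 180 bases runs from 150 before to 30 after the start, 5′ to 3′ on the strand of the gene, in lower case with matched letters in capitals. In Mrpl33 (chr5:31613801-31613980, plus strand) the NRF1 letters at -12 are followed, after a single base, by ETS letters over the start. In Mrpl52 (chr14:54426759-54426938, plus strand) the ETS letters stand on the other strand just after the start. In Mrpl36 (chr13:73330859-73331038, plus strand) an E-box at -43 precedes YY1 letters on the other strand at -30.
Mrpl33: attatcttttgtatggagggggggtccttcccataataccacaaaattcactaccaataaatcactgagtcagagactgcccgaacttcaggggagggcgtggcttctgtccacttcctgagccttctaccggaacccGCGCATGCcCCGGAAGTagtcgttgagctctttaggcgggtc
Mrpl52: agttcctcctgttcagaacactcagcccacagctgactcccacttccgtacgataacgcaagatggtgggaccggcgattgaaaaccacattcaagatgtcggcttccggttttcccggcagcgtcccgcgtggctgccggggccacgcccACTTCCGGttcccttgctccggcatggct
Mrpl36: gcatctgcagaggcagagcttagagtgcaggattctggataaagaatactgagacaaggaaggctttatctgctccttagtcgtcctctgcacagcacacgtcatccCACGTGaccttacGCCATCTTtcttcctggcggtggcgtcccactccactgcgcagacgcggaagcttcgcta

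The 3 highest fold changes were taken among members without overlap and with a single promoter. Of these 3, Mrps33 (chr6:39810907-39811086, minus strand) and Mrpl41 (chr2:24975069-24975248, minus strand) had none of the letters in this stretch, and Mrpl20 (chr4:155802728-155802907, plus strand) had an E-box at -33. Mrps33 and Mrpl41 were GC-rich, at 67.2% and 71.1%, and Mrpl20 had 41.7%.
Mrps33: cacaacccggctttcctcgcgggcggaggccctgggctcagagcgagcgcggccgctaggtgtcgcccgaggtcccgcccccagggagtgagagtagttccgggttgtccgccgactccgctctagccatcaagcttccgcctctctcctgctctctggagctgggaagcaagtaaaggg
Mrpl41: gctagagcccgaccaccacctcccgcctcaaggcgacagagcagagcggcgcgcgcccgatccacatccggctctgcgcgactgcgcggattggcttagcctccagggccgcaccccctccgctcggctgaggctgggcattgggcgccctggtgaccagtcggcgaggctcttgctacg
Mrpl20: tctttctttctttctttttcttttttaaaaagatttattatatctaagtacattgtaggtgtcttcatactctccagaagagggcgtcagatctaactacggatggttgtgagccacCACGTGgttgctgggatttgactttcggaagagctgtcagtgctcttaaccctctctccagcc

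The 3 lowest were likewise taken among members without overlap and with a single promoter, which left out Mrpl48 and Mrps34. Of these 3, Mrpl10 (chr11:97041432-97041611, plus strand) had NRF1 letters on the other strand at -134, whereas Mrpl55 (chr11:59202336-59202515, plus strand) and Mrps2 (chr2:28467916-28468095, plus strand) had none.
Mrpl10: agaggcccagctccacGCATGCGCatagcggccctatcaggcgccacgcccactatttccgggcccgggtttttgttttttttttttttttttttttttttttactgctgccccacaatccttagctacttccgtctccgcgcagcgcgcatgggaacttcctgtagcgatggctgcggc
Mrpl55: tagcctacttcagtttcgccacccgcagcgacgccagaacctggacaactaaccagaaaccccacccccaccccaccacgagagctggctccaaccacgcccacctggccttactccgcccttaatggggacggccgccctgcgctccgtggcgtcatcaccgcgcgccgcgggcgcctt
Mrps2: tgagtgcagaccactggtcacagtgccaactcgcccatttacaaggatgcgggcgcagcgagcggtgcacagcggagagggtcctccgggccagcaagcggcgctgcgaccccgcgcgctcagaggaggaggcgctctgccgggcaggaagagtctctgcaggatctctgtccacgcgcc

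The genes that work with the mitochondrial ribosome were compared in the same fit. The 6 mitoribosomal proteins under other symbols (Dap3, Ptcd3, Chchd1, Aurkaip1, Gadd45gip1 and Ict1) were all above 0 (38.5% of all genes were), from 0.01 to 1.01 with a median of 0.28. Only Gadd45gip1 had no overlap (16.7%, against 14.8% of all genes). The highest, Ict1, had 17.0 and 46.9 TPM in WT and 73.7 and 45.9 in Chd8-/-. Chchd1 had 40.1 and 86.7 TPM in WT and 101.5 and 51.8 in Chd8-/-. Ptcd3 was below both WT values (10.1 and 9.2 TPM) in the second Chd8-/- library (8.9) and above them in the first (12.4). Of the 11 mitochondrial translation factors 5 were above 0 (median -0.18). Tufm, the elongation factor Tu of mitochondria, had 21.6 and 29.6 TPM in WT, 21.8 in the first Chd8-/- library and 6.1 in the second, and Mtrf1, a release factor, had 5.1 and 5.2 in WT, 4.2 in the first and 0.1 in the second. Without the second library the log2 fold changes of -1.05 and -1.36 were -0.21 and -0.24. Of the 17 mitochondrial aminoacyl-tRNA synthetases 4 were above 0 (23.5%, median -0.24), and Sars2, which charges the serine tRNAs, had 9.5 and 10.7 TPM in WT and 2.6 and 4.3 in Chd8-/- (log2 fold change -1.34, SE 0.40, adjusted p = 0.451). Of the 21 genes of ribosome assembly and RNA modification 11 were above 0 (median 0.03). The GTPase Mtg1 had 10.3 and 14.7 TPM in WT and 3.1 and 7.9 in Chd8-/-, and Fastkd2, which binds the large ribosomal RNA, had 5.0 and 8.6 in WT and 10.2 and 21.2 in Chd8-/-. Their log2 fold changes of -1.14 and 1.05 were -0.58 for Mtg1 without the first Chd8-/- library and 0.56 for Fastkd2 without the second. Of the 7 genes of mitochondrial DNA transcription 3 were above 0 (42.9%, against 38.5% of all genes). The same 3 lay above WT without overlap, against 14.8% of all genes. Among them was the polymerase Polrmt (7.3 and 6.7 TPM in WT, 8.6 and 11.3 in Chd8-/-). The packaging factor Tfam (log2 fold change 0.31) was another. Its second Chd8-/- library (32.9 TPM) was barely above the first WT library (32.5), and the value came mainly from the first Chd8-/- library (45.9). None of the genes in these lists passed an adjusted p of 0.05.

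The respiratory chain genes of the nucleus, whose products assemble with those made on mitochondrial ribosomes, were described in the same way. Of 37 complex I genes 27 were above 0 (73.0%, against 38.5% of all genes, median 0.24). Of these genes 12 lay above WT without overlap (32.4%, against 14.8% of all genes) and 2 below (5.41%, against 27.8%). Of 41 genes of complexes II to V 26 were above 0 (63.4%, median 0.11), with 10 above (24.4%) and 4 below WT (9.76%) without overlap. Of 79 cytosolic ribosomal protein genes 25 were above 0 (31.6%, median -0.08), with 13 above (16.5%) and 24 below (30.4%). The mitochondrial ribosomal protein genes were at 50.6%, and the differences between the groups were not tested.

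These group values moved with the Chd8-/- libraries. The median TPM of the complex I genes was 104.6 and 103.3 in WT, 123.0 in the first Chd8-/- library and 108.8 in the second, and that of complexes II to V was 211.7 and 223.9 in WT, 285.2 in the first and 181.6 in the second. The first Chd8-/- library lay above and the second below both WT libraries in 8 of 37 complex I genes, against 11.9% of all genes. This held in 13 of 41 genes of complexes II to V and 15 of 79 cytosolic ribosomal protein genes. The reverse held in 0, 1 and 2 genes, against 6.52% of all genes. In fits chosen after seeing the data, the median log2 fold change of complex I was 0.04 without the first Chd8-/- library and 0.45 without the second. For complexes II to V it was -0.07 and 0.29, and for the cytosolic ribosomal proteins -0.16 and 0.01. The members' own medians of -0.17 and 0.17 in these fits moved the same way.

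With limma 0 genes of the 3 groups passed an adjusted p of 0.05. At an unadjusted p under 0.05, 6 complex I genes were higher (16.2%, against 3.9% of all genes) and 1 lower (2.7%, against 6.3%). In complexes II to V there were 1 and 1 (2.44% each), and among the cytosolic ribosomal proteins 2 (2.53%) and 3 (3.8%). The mitochondrial DNA's own genes were not analysed here.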

How the data were processed

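RNA-seq of sorted splenic YFP+ Tregs was taken from the deposited table of TPM values. Per the labels and the study's methods, the authors trimmed reads (Trim Galore 0.4.2, cutadapt 1.9.1), aligned them to mm10 with STAR 2.6.1e, dropped duplicate reads (sambamba), assigned the rest to RefSeq genes (featureCounts 1.6.2) and gave TPM rounded to 1 decimal. TPM keeps no depth, so the depth is unknown and no counting interval is given. The 4 libraries had between 19540 and 20984 genes above 0 TPM. The libraries are not tied to the male and the female mouse of each genotype, so p-values measure the spread between libraries.

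Of 35869 names, 4 entries that repeat a name were dropped. Genes reaching 1 TPM in 2 libraries were compared as log2(TPM + 1) by a two-sided limma-trend fit (limma 3.58.1, R 4.3.3) with Benjamini-Hochberg adjustment over all 15240 genes. Fold changes on this scale understate those of low genes. The code was tested on simulated data. The members and gene lists were chosen with earlier results of these data known. Genes were named by level (the 10 highest), by fold change without overlap (up to 12 each way), by the study's lists and as the Mrps18 genes, and a few after their values were seen. Positions and promoters are RefSeq GRCm38.p6. ATAC-seq and CHIP-seq peaks lie on mm39, for which no annotation was used here, and were not analysed.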

Additional observations from a re-analysis of the deposited data

How the results depend on the processing

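The alternatives were other pseudocounts (0.1 and 5), no filter, a mean of 5 TPM or more, quantile normalization, the median of all genes set to 0, the replicate block, eBayes without trend, and leaving out each library. Leaving out libraries for the respiratory and cytosolic groups, and marker sums without the most abundant gene, were added after seeing the data. Of 586 recomputed values 545 were labelled the same, 26 moved and 15 reversed. A gene counted as the same if it kept its direction and its side of the threshold. No named gene passed the threshold as reported, so this is mainly a check of direction. The changes of filter, the replicate block and eBayes without trend leave each gene's fold change unchanged, so there the direction could not turn. With 1 library left out, the named members without overlap could not turn either. The number labelled the same is therefore partly fixed in advance. A median counted as the same within the replicate spread, and a count within 1.5 times. Under the alternatives that kept all libraries 0 members passed an adjusted p of 0.05. Members lower by a log2 fold change of at least 1 numbered 2 in place of 4 under log2(TPM + 5), quantile normalization and with the median of all genes set to 0, where those higher numbered 2 in place of 1. Mrps18b turned to 0.068 under quantile normalization and to 0.10 with the median set to 0, where Mrpl52 turned to 0.052.

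Leaving out 1 library put the member median between -0.17 and 0.17 and the small-subunit median between -0.43 and 0.23. The members without overlap above WT numbered 25 to 33 and below WT 17 to 36, since fewer libraries have to agree. Those past a log2 fold change of 1 numbered 3 to 4 upward and 0 to 11 downward. The direction of 7 named members turned in at least 1 of these fits. The ranges were -0.28 to 0.088 for Mrpl52, -0.46 to 0.59 for Mrpl32, -0.23 to 0.37 for Mrpl13, -0.039 to 0.36 for Mrps21, -2.19 to 0.51 for Mrps16, -0.78 to 0.68 for Mrps18b and -1.09 to 0.53 for Mrps18c. A lone library was assumed to vary like the other group.

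Without a filter 415 of 35865 genes passed an adjusted p of 0.05, and at a mean TPM of at least 5, 2 of 11351 did, against 0 in the analysis as reported. The replicate block gave a smallest adjusted p of 0.552 among the members, a median of 0.01 and 3 members at an unadjusted p under 0.05 in place of 7. Over all genes, libraries of the same number did not deviate together (correlation -0.0117). Such a correlation can miss a pairing that shows in few genes, so whether the numbers pair the libraries is not settled. The alternatives for ATAC-seq and CHIP-seq peaks at start sites were not run. With 2 libraries per genotype and TPM without counts, differences within the replicate spread, and some beyond it, were not detectable.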
